A study of Mus musculus with 16 samples.

Results

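SR proteins, hnRNP proteins and the SF3a and SF3b complexes decide where the spliceosome cuts. SR proteins carry domains rich in serine and arginine and mostly bind exonic enhancers, where they promote the use of nearby splice sites. hnRNP proteins coat nascent RNA and often repress exons or compete with SR proteins for them. SF3a and SF3b are parts of the U2 snRNP, which recognises the branch site of an intron. Activated T cells change the splicing of many transcripts, among them that of the phosphatase CD45, and many SR and hnRNP genes control their own level through exons that send the transcript to nonsense-mediated decay. A count per gene adds up such isoforms and cannot tell them apart.

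The genes described here are the 37 symbols of the count matrix that begin with Srsf and a digit, with Hnrnp, or with Sf3a or Sf3b and a digit, of 34573 symbols in all. 1 further symbol marked as a pseudogene was left out. They comprise 11 SR genes, 18 hnRNP genes and 8 SF3 genes, and all 37 passed the filter on low counts, as did 14332 genes in total. The rule used names only, and 3 genes that carry such names today (Hnrnpdl, Hnrnpll and Sf3b6) stand in the matrix under older ones and are described with the related genes below.

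The study followed CD8+ T cells of C57BL/6 mice through activation in culture by RNA-seq, beside maps of chromosome contacts from 4 samples that were not analysed here. Naive cells were taken from spleens with an isolation kit, activated with antibodies to CD3e and CD28 (10 µg/ml each), and given IL-2 at 300 U/ml after a night. Tn are CD8+, CD44-, CD62L+ cells at day 0. Teff1 (day 2) and Teff2 (day 5) are PD-1+ TIM-3- cells and Tex (day 5) are PD-1+ TIM-3+ cells, all of them CD8+. All groups share the strain and the isolation, and the activated groups share the stimulus, so the Tex cells are a model made in culture in 5 days without infection or tumour. Each group had 3 libraries from 0.2 M cells each, with 14.7 to 21.2 M counts per library. The labels do not say whether libraries of a group came from separate animals or cultures, so a p-value here rests on the spread among these libraries alone, which may be technical.

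Levels are in CPM, counts scaled to the library total by the TMM method, and no transcript length was used, so a CPM compares 1 gene between libraries and not 2 genes with each other. Cd8a lay between 715 and 1536 CPM in the 12 libraries. Pdcd1, which encodes PD-1, was at 3.00 to 6.93 CPM in Tn and at 72.2 to 241 CPM in the activated libraries, and Havcr2, which encodes TIM-3, was at 34.6, 10.9 and 38.4 CPM in Tex and at 0.258 to 0.612 CPM in Teff2. The Tn libraries also held markers of other cells, most in replicates 1 and 3: 6 B cell markers summed to 1125, 576 and 1807 CPM and 4 genes of MHC class II presentation to 1343, 112 and 2028 CPM in replicates 1 to 3. In the activated libraries these sums were 89.1 to 305 CPM and 29.1 to 121 CPM, and Pax5, a B cell transcription factor, was at most 0.143 CPM and at 0 in 7 of 9 libraries. 5 macrophage and monocyte markers summed to 58.0 to 202 CPM in Tn and 4.19 to 11.5 CPM in the activated libraries. Lyz2 was at 0 in 5 of 9 activated libraries, whereas Cd68 was at 9.53 to 16.6 CPM in Tn and still at 3.90 to 11.3 CPM in the activated ones. Of 5 NK cell markers, Ncr1, Klrb1c, Klra8 and Tyrobp were highest in Tn replicate 3 (Ncr1 at 12.3, 0.341 and 30.8 CPM in replicates 1 to 3). Klrk1 was higher in the activated libraries (84.4 to 454 CPM) than in Tn (39.6 to 60.8 CPM). 4 erythroid markers, by contrast, were lowest in Tn replicate 3 (153, 145 and 68.3 CPM in replicates 1 to 3, against 0.322 to 7.20 CPM in the activated libraries). The sum of 2 CD4 T cell markers was 5.31 to 44.7 CPM in Tn, lowest in replicate 2, and 0.648 to 9.90 CPM in the activated libraries.

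The windows upstream of 4 genes are printed because they belong to called genes of opposite direction and reach little or not at all into the annotated gene. Each is the 250 bases before the RefSeq start site in build GRCm38.p6 (mm10), 5′ to 3′ on the gene's own strand, and capitals mark matches of CCGGAA or its reverse complement TTCCGG, the core bound by ETS family factors. Hnrnpab (chr11:51606882-51607131, minus strand) and Sf3a3 (chr4:124714611-124714860, plus strand) rose on activation, and Srsf5 (chr12:80945249-80945498, plus strand) and Sf3b1 (chr1:55027479-55027728, minus strand) fell. The last 4 bases of the Srsf5 window and the last 23 of the Sf3b1 window lie within the annotated gene.
Hnrnpab: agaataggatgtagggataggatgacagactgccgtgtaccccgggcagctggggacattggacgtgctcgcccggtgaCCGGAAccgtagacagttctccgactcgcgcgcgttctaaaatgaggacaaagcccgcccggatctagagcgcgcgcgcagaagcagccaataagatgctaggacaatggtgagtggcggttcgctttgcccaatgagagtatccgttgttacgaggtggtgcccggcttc
Sf3a3: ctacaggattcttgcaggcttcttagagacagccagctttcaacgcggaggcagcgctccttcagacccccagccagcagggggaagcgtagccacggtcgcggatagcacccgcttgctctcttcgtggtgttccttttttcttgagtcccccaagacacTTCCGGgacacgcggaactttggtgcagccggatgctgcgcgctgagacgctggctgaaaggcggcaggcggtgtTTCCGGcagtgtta
Srsf5: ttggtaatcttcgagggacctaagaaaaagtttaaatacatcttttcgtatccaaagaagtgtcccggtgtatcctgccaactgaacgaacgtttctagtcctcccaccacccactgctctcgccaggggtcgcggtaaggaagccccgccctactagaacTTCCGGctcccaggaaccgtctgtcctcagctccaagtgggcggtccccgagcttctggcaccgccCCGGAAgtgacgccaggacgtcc
Sf3b1: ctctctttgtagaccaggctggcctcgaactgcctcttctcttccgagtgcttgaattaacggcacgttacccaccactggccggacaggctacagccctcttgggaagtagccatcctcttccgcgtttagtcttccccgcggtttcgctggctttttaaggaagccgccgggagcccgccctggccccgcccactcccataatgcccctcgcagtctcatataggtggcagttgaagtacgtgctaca

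The Hnrnpab window held 1 match, which begins 171 bases before the start site. Both Sf3a3, which rose, and Srsf5, which fell, held 2 matches, the distal one in each 89 bases before the start, and Sf3b1 held none. Windows were found for 34 of the 37 genes, and 16 of these 34 (47.1%) held the core in at least 1 window. The same held for 25.4% of 9267 tested genes with a window and 13.6% of all 27025 genes with a window. By the call between Teff1 and Tn the core was in 10 of 17 genes called higher, 1 of 3 called lower and 5 of 14 not called. The E-box CACGTG, its own reverse complement, was in 3 of 34 genes, against 9.84% of tested genes and 6.86% of all genes with a window. The NRF1 motif GCGCATG (or CATGCGC) was in 4 of 34 (Hnrnph1, Hnrnpul1, Srsf11 and Srsf7), against 6.66% of tested genes and 3.68% of all genes with a window. Of its matches, 2 in a Srsf11 window overlap. In the windows of the 34 genes no match of 1 motif overlapped a match of another. A match describes letters and is not a site.

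By day 2 of activation many splicing factor genes had risen, Hnrnpab, Hnrnpa1 and Srsf1 most among those above 10 CPM, and a few had fallen, Srsf5 and Sf3b1 among them. Between Teff1 and Tn 19 of the 37 genes were called higher and 3 lower at an adjusted p under 0.05 (edgeR's quasi-likelihood test, Benjamini-Hochberg over all genes tested). Of all 14332 genes, 24.5% were called higher and 24.5% lower. The median log2 fold change of the 37 was 0.46, and that of all genes tested was -0.06. By family, 5 of 11 SR genes rose and 2 fell, 9 of 18 hnRNP genes rose and none fell, and 5 of 8 SF3 genes rose and 1 fell. In bulk libraries fewer cells of a type and less RNA per cell cannot be told apart, and the share of other cells in Tn moved with this comparison. With Tn replicates 1 and 3 left out the median of the 37 was again 0.46, but against the single Tn library that remained, replicate 2, 1 gene was called higher (Hnrnpab) and 2 lower. Without Teff1 replicate 3, or without Tn replicate 3, 12 were called higher. Calls over all genes, both directions together, also dropped in these fits, from 7012 to 3015 against Tn replicate 2 alone, to 5783 without Teff1 replicate 3 and to 5779 without Tn replicate 3.

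**Figure D1:**
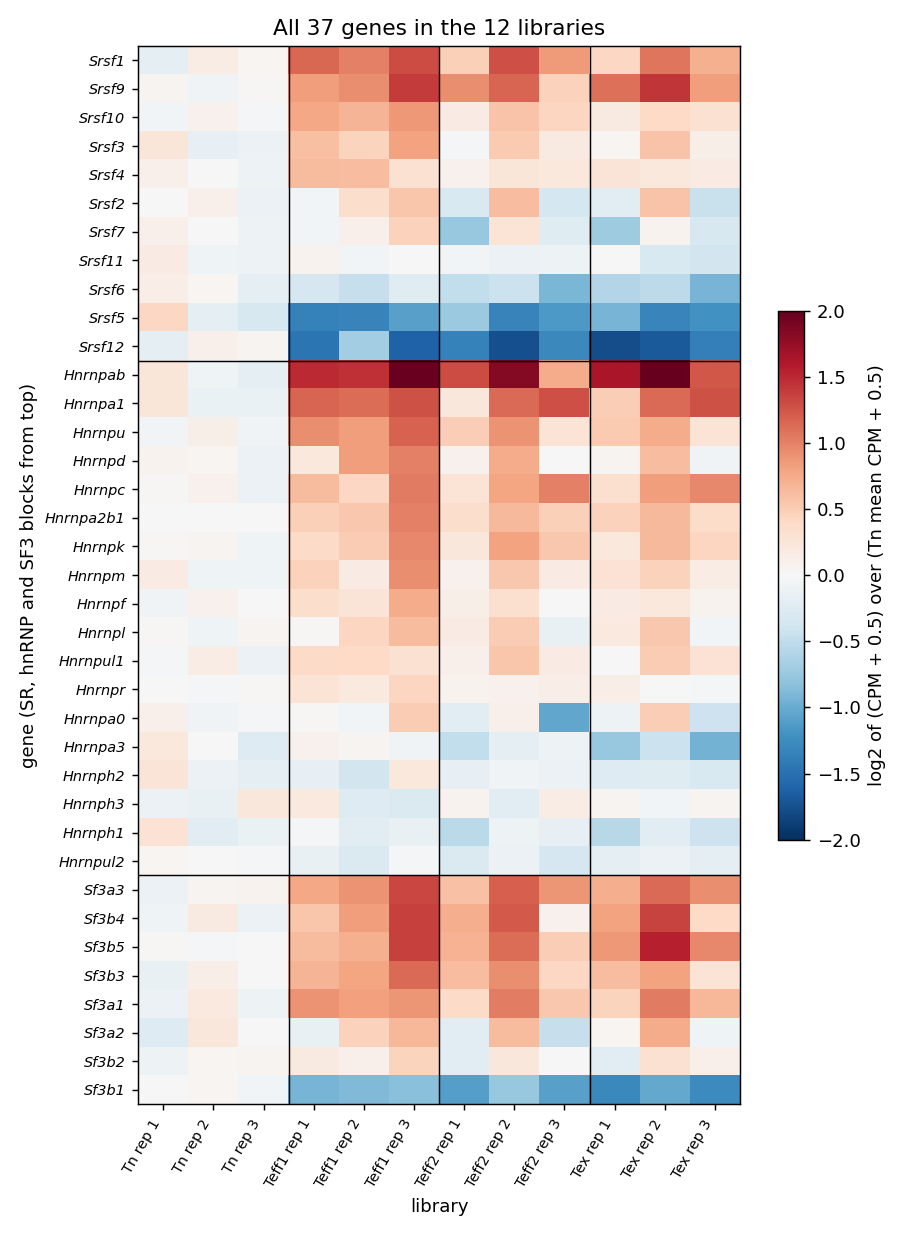
Level of each of the 37 genes (rows, in SR, hnRNP and SF3 blocks, each sorted by its change from Tn to Teff1) in each of the 12 libraries (columns), as log2 of CPM plus 0.5 over the Tn mean plus 0.5. Red is above and blue below the Tn mean. Most rows turn red in Teff1 while Srsf5, Srsf12 and Sf3b1 turn blue, and Teff1 replicate 3, Teff2 replicate 2 and Tex replicate 2 are the reddest columns of their states.

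Among the SR genes, Srsf1 had the largest rise. Srsf1 encodes the founding member of the family, which activates exons and also acts in mRNA export and translation. Its level was 205, 259 and 239.8 CPM in Tn replicates 1 to 3, 523, 475 and 578 CPM in Teff1, 325, 572 and 425 CPM in Teff2 and 313, 493 and 384 CPM in Tex. All 9 activated libraries lay above all 3 Tn libraries, and Srsf1 was 2.24-fold higher in Teff1 than in Tn (log2 fold change 1.16, SE 0.23, adjusted p = 0.00141) and 1.88-fold higher in Teff2 (log2 fold change 0.91, SE 0.22, adjusted p = 0.00563). The other 4 SR genes called higher in Teff1 were Srsf9 (log2 fold change 1.08, SE 0.22, adjusted p = 0.00176), Srsf10 (0.78), Srsf3 (0.62) and Srsf4 (0.53), the values in brackets being log2 fold changes. Srsf10 encodes a protein that represses splicing when it loses its phosphates, and Srsf3 the smallest SR protein, an adaptor for mRNA export. Srsf3 has processed copies in the genome, so the split of its reads is uncertain. Of the 37 genes, 12 overlap another annotated gene, whose reads cannot be told apart where the counting is not stated to use strand. They are Srsf2, Srsf4, Srsf9, Hnrnpab, Hnrnpd, Hnrnpf, Hnrnph3, Hnrnpk, Hnrnpu, Sf3a3, Sf3b3 and Sf3b4, so the limit also holds for the hnRNP and SF3 results below.

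Srsf5 fell. Srsf5 encodes an SR protein first found as an early gene of regenerating liver. Its level was 1267, 830.0 and 759 CPM in Tn replicates 1 to 3, 373, 377 and 448 CPM in Teff1, 567, 378 and 429.8 CPM in Teff2 and 498, 382 and 412 CPM in Tex. Tn replicate 1 was the highest library, yet every Tn library stood above every activated one, and Srsf5 was lower in Teff1 (log2 fold change -1.25, SE 0.22, adjusted p = 8.66e-04) and in Teff2 (log2 fold change -1.05, SE 0.22, adjusted p = 0.00234). Against Tn replicate 2 alone, the Tn library with the lowest sums of B cell, MHC class II and macrophage markers, the log2 fold changes were -1.07 and -0.87, with adjusted p of 0.0215 and 0.0439. Srsf12, whose product is known to antagonise other SR proteins, also fell from Tn to Teff1 (log2 fold change -1.45, SE 0.40, adjusted p = 0.0106), but from low counts: 53, 64 and 78 counts in Tn and 24, 48 and 16 in Teff1. Its call was lost without Teff1 replicate 3, and also with Tn replicates 1 and 3 left out, a fit in which calls over all genes dropped too.

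Srsf6, which encodes a regulator of alternative exons, was at 548, 517 and 440.0 CPM in Tn replicates 1 to 3, 397, 365 and 423 CPM in Teff1, 358, 372 and 265 CPM in Teff2 and 333, 348 and 263 CPM in Tex. All activated libraries lay below all Tn libraries. From Tn to Teff1 the difference missed the threshold (log2 fold change -0.35, SE 0.17, adjusted p = 0.118), and from Tn to Teff2 it passed (log2 fold change -0.60, SE 0.17, adjusted p = 0.0138). The Teff2 call was lost without Teff2 replicate 3 (adjusted p = 0.0659) and without Tn replicate 1 (adjusted p = 0.0527). The log2 fold changes of Srsf2, Srsf7 and Srsf11 between Teff1 and Tn, 0.31, 0.19 and 0.00, were not called. Their standard errors were 0.30, 0.26 and 0.14.

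**Figure D2:**
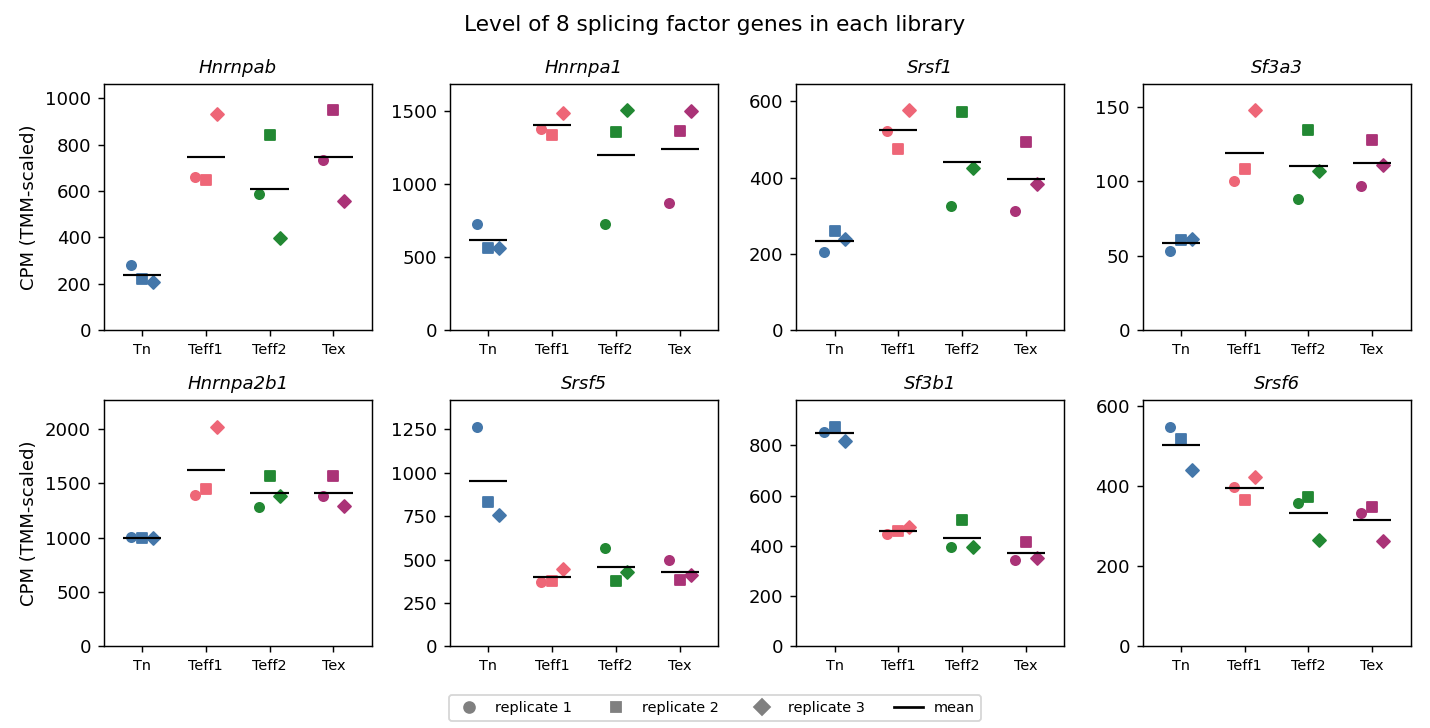
Level in CPM (TMM-scaled, each axis from 0) of 8 genes in the 3 libraries of Tn, Teff1, Teff2 and Tex, with the replicate shown by the marker's shape and the mean by a bar. Hnrnpab, Srsf1, Sf3a3 and Hnrnpa2b1 lie above Tn in all activated libraries and Srsf5, Sf3b1 and Srsf6 below, while Hnrnpa1 in Teff2 replicate 1 is at the level of Tn replicate 1.

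With some SR genes rising and Srsf5 falling, the summed CPM of the family was 3102 ± 408 in Tn and 3203 ± 306 in Teff1 (SD, n = 3 each). Srsf12 supplied only 0.13% of the SR counts in Tn. The share of Srsf6, which was not called in Teff1, was 16.2% ± 0.98 in Tn and 12.3% ± 0.54 in Teff1 (SD, n = 3 each). Srsf5 supplied 30.3% ± 4.6 of the SR counts in Tn, 12.4% ± 0.27 in Teff1, later 16.9% ± 5.1 in Teff2, and 16.5% ± 3.5 in Tex (SD, n = 3 each). Srsf1 supplied 7.7% ± 1.7, 16.4% ± 0.59, 15.8% ± 2.8 and 14.9% ± 2.2 in the same order. In each of the 3 Tn libraries the share of Srsf5 was above that of any activated library, and the share of Srsf1 was below. Long transcripts give more counts, so the shares compare states and not genes.

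**Figure D3:**
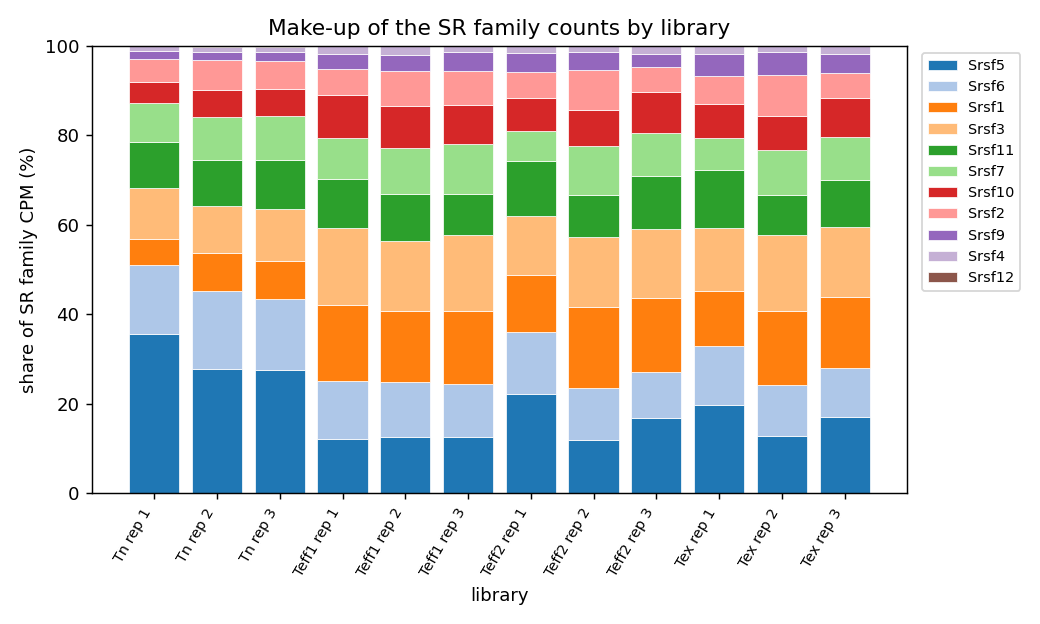
Share of the summed CPM of the 11 SR genes (vertical axis, percent) held by each gene in each of the 12 libraries. The Srsf5 block is 27.4% to 35.6% in the Tn libraries and 11.9% to 22.1% in the activated ones, and the Srsf1 block is 5.75% to 8.68% in Tn and 12.4% to 18.0% in the activated libraries.

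Of the hnRNP genes, Hnrnpab rose most. Hnrnpab encodes a protein that binds both single-stranded DNA and RNA. Its level was 279, 221 and 206 CPM in Tn replicates 1 to 3, 659.7, 647 and 933 CPM in Teff1, 585, 840.3 and 395 CPM in Teff2 and 731, 949 and 555 CPM in Tex. No activated library overlapped Tn. Hnrnpab was 3.17-fold higher in Teff1 than in Tn (log2 fold change 1.66, SE 0.29, adjusted p = 7.28e-04) and 2.58-fold higher in Teff2 (log2 fold change 1.37, SE 0.29, adjusted p = 0.00223). Against Tn replicate 2 alone the log2 fold changes were 1.74 (adjusted p = 0.0314) and 1.44 (adjusted p = 0.0515).

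Hnrnpa1 encodes the best studied repressor of exons among the hnRNPs. It was at 727, 561 and 564 CPM in Tn replicates 1 to 3, 1380.4, 1337 and 1491 CPM in Teff1, 725, 1357 and 1509 CPM in Teff2 and 871, 1362 and 1500.3 CPM in Tex. Teff1 lay above Tn in every library (log2 fold change 1.18, SE 0.27, adjusted p = 0.00394). Teff2 replicate 1 fell within the range of Tn while the other two Teff2 libraries lay within or above the range of Teff1 (log2 fold change 0.95, SE 0.27, adjusted p = 0.0122), and the Teff2 call was lost without Teff2 replicate 3 (adjusted p = 0.0522). Day 5 replicate 1 also had the lowest sum of 5 proliferation genes among the activated libraries: 730.0 CPM in Teff2 and 847 CPM in Tex, against 2018 to 2645 CPM in the other activated libraries and 43.2 to 88.1 CPM in Tn. The part of proliferation in the level of Hnrnpa1 was not tested. Hnrnpa1 has many processed copies in the genome, so its counts carry that uncertainty too.

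Hnrnpa2b1, close kin of Hnrnpa1 and a reader of methylated adenosine in RNA, was at 1009, 996 and 1001 CPM in Tn replicates 1 to 3, 1391, 1449 and 2023 CPM in Teff1, 1285, 1572 and 1388 CPM in Teff2 and 1386, 1565 and 1293 CPM in Tex. The 3 Tn libraries differed by little and all activated libraries were higher (Teff1 against Tn, log2 fold change 0.69, SE 0.17, adjusted p = 0.00595). Hnrnpu, whose product also organises chromatin, was at 652, 731 and 644 CPM in Tn against 1289, 1209.7 and 1529.6 CPM in Teff1 (log2 fold change 0.99, SE 0.19, adjusted p = 0.00142). The other hnRNP genes called higher in Teff1 were Hnrnpd, Hnrnpc, Hnrnpk, Hnrnpm and Hnrnpf, with log2 fold changes from 0.46 (Hnrnpf) to 0.73 (Hnrnpd). Hnrnpd encodes AUF1, which binds AU-rich elements and speeds decay of cytokine mRNA, Hnrnpc binds runs of uridine, Hnrnpk binds runs of cytidine, and Hnrnpf binds runs of guanosine.

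The 9 hnRNP genes that were not called had log2 fold changes between Teff1 and Tn from -0.15 (Hnrnpul2) to 0.39 (Hnrnpl). Hnrnpl encodes a repressor of variable CD45 exons that binds CA repeats. It was at 489, 449 and 498 CPM in Tn against 486, 647 and 743 CPM in Teff1, so the groups overlapped (log2 fold change 0.39, SE 0.22, adjusted p = 0.157). Hnrnph1, Hnrnph2 and Hnrnph3, close relatives of Hnrnpf, gave -0.14, -0.09 and -0.10 on the log2 scale, with standard errors of 0.18, 0.17 and 0.18. Hnrnpr and Hnrnpul1 did not overlap between Teff1 and Tn but missed the threshold, with adjusted p of 0.0582 and 0.0978. Summed over its 18 genes the hnRNP family held 0.769% ± 0.040 of counts in Tn, 1.10% ± 0.13 in Teff1, then 0.950% ± 0.11 in Teff2, and 0.955% ± 0.089 in Tex (SD, n = 3 each).

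In the SF3 complexes the largest subunit went against most of the others. Sf3b1 encodes the subunit that grips the branch site and is the one most often mutated in myelodysplastic disease. It was at 852, 875 and 816 CPM in Tn replicates 1 to 3, 446, 459 and 477 CPM in Teff1, 395, 503 and 398 CPM in Teff2 and 345, 416 and 351 CPM in Tex. The 3 Tn libraries agreed closely and every activated library was far below them. Sf3b1 was 1.84-fold lower in Teff1 (log2 fold change -0.88, SE 0.15, adjusted p = 5.38e-04) and 1.96-fold lower in Teff2 (log2 fold change -0.97, SE 0.15, adjusted p = 2.77e-04), and against Tn replicate 2 alone the log2 fold changes were -0.94 and -1.03, with adjusted p of 0.018 and 0.0111.

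Sf3a3, which encodes a subunit of SF3a, was at 53.4, 60.5 and 60.8 CPM in Tn replicates 1 to 3, 100.01, 108 and 148 CPM in Teff1, 88.0, 135 and 107 CPM in Teff2 and 96.9, 128 and 111 CPM in Tex. All activated libraries were above Tn (Teff1 against Tn, log2 fold change 1.03, SE 0.20, adjusted p = 0.00138, and Teff2 against Tn, log2 fold change 0.92, SE 0.20, adjusted p = 0.00266). Sf3a1, another SF3a subunit, was at 102, 126 and 102 CPM in Tn against 205, 195 and 203 CPM in Teff1 (log2 fold change 0.87, SE 0.20, adjusted p = 0.0038), whereas Sf3a2 overlapped between the groups (log2 fold change 0.36, SE 0.32, adjusted p = 0.359). In SF3b, Sf3b4, Sf3b5 and Sf3b3, the last the scaffold that Sf3b1 wraps around, rose in Teff1 by log2 fold changes of 0.97, 0.95 and 0.88. Sf3b2 was not called (log2 fold change 0.25, SE 0.18, adjusted p = 0.262). The 2 other SF3b subunits lie outside the rule by name. Phf5a was at 35.5 ± 1.36 CPM in Tn against 102 ± 27.0 CPM in Teff1 (SD, n = 3 each, log2 fold change 1.52, SE 0.22, adjusted p = 2.60e-04), and Sf3b6, listed under the older name 0610009D07Rik, at 44.8 ± 3.02 and 81.7 ± 13.8 CPM (log2 fold change 0.87, SE 0.23, adjusted p = 0.00888). Sf3b1 gave 47.6% ± 1.9 of the counts of the 8 SF3 genes in Tn and 24% ± 2.2 in Teff1 (SD, n = 3 each).

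At day 5 some of these genes still differed between the TIM-3- cells and naive cells. Between Teff2 and Tn 13 of the 37 genes (35.1%) were called higher and 4 (10.8%) lower, against 25.6% and 23.3% of all genes tested. In both directions together 45.9% of the 37 were called, near the share of all genes (7010 of 14332). The median log2 fold change of the 37 was 0.20, and that of all genes tested was 0.00. The calls were 3 higher and 3 lower among the 11 SR genes (27.3% each way, near the shares of all genes). They were 6 and none among hnRNP genes (with upper-quartile scaling Hnrnpul2 was called lower), and 4 and 1 among SF3 genes. This comparison shares the Tn libraries with the one above, so the lists are not independent. With upper-quartile scaling, which moved the median of all genes from 0.00 to -0.11, 9 were called higher and 5 lower. Without Teff2 replicate 2, Tn replicate 1 or Tn replicate 3, the genes called higher numbered 7, 6 and 7. Against Tn replicate 2 alone none was called higher and 3 lower, and the median was 0.18. Over all genes the calls in both directions dropped as well, from 7010 to 5965, 5951 and 5842 without those single libraries and to 3334 against Tn replicate 2 alone.

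**Figure D4:**
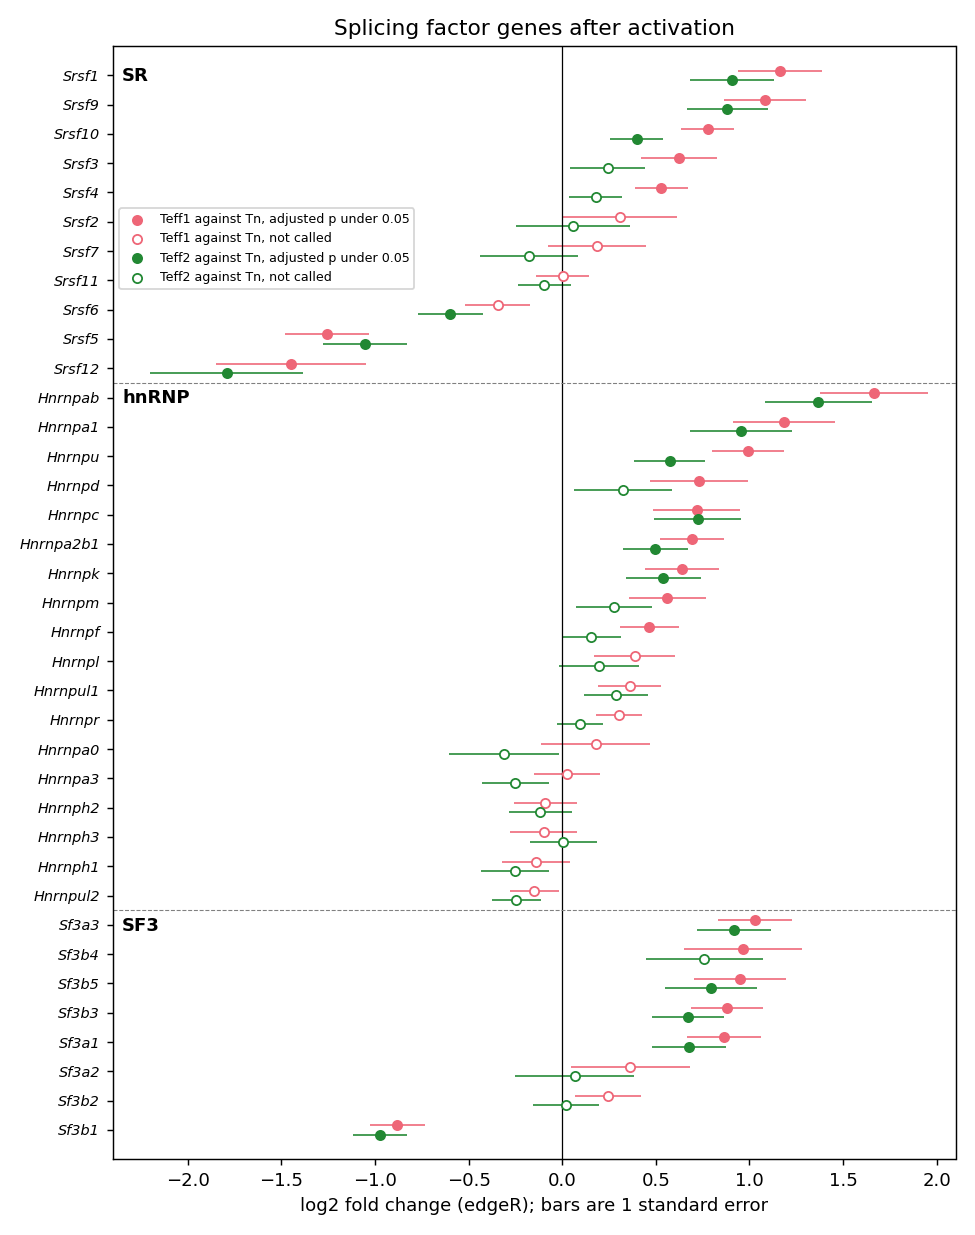
Log2 fold change of each gene against Tn (horizontal axis) in Teff1 (red) and Teff2 (green), with bars of 1 standard error derived from edgeR's F statistic. Filled points passed an adjusted p of 0.05 and open points did not. Hnrnpab, at 1.66 in Teff1, is farthest right, and Srsf12, at -1.79 in Teff2, is farthest left.

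From day 2 to day 5 none of the 37 genes was called between Teff2 and Teff1 by edgeR, DESeq2 or limma. Of all genes tested 0.558% were called higher and 0.112% lower. At an unadjusted p under 0.05 there were 3, and the share of all genes at that p was not computed. All 3 had lower levels in Teff2: Srsf10 (log2 fold change -0.38, adjusted p = 0.291), Srsf4 (-0.35, adjusted p = 0.336) and Hnrnpu (-0.42, adjusted p = 0.415). The log2 fold changes ran from -0.49 (Hnrnpa0) to 0.20 (Srsf5), and 34 of 37 were negative. Their median was -0.21, and that of all genes -0.00. That median was -0.11 without Teff1 replicate 3, whose level was above the mean of the other two Teff1 libraries for 30 of the 37 genes. It was -0.36 without Teff2 replicate 2, which stood above the mean of the other two Teff2 libraries for 32. Srsf3, for example, was at 525, 469 and 601 CPM in Teff1 and 338, 494 and 392 CPM in Teff2, so the states overlapped (log2 fold change -0.38, SE 0.20, adjusted p = 0.506). It was called between Teff1 and Tn but not between Teff2 and Tn (adjusted p = 0.338), and the difference between those results was not itself called.

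The TIM-3+ and TIM-3- cells of day 5 gave values close to each other for most of these genes. None of the 37 was called between Tex and Teff2 by edgeR, DESeq2 or limma, and 1 had an unadjusted p under 0.05, Hnrnpa3 (log2 fold change -0.45, SE 0.18, adjusted p = 1). Of all genes tested 0.00698% were called higher and 0.0% lower. Libraries of equal number deviated together in these 2 states, so a fit within the 3 pairs was also made. It called 0.962% of 13096 genes higher and 0.725% lower, but again none of the 37. The share of all genes at an unadjusted p under 0.05 was computed for neither fit. Of the 37, 7 had such a p in the fit within pairs. In that fit Hnrnpa3, a relative of Hnrnpa1 with processed copies of its own, was lower in Tex in all 3 pairs (log2 fold change -0.46, adjusted p = 0.103) and Sf3b5 higher in all 3 pairs (0.36, adjusted p = 0.0794). Such agreement was common among the 37 genes, as in Hnrnpa0, higher in all 3 pairs (0.37, adjusted p = 0.129), and Srsf1, lower in all 3 (-0.14, adjusted p = 0.392). Hnrnpa3 was at 88.5, 110.2 and 117 CPM in Teff2 replicates 1 to 3 and 74.0, 92.7 and 64.7 CPM in Tex, and Hnrnpab, which was higher in Tex in 3 of 3 pairs, gave 0.32 (adjusted p = 0.117). The median over the 37 genes was -0.01 in that fit.

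Replicate 2 stood high in both day 5 states. Tex replicate 2 stood above the mean of the other two Tex libraries for 31 of the 37 genes, by a median of 0.33 on the log2 scale, and Teff2 replicate 2 by a median of 0.40. The same deviation over all genes tested was -0.02 and -0.01. Sf3b5, for example, was at 96.0, 156 and 103 CPM in Tex and 85.2, 115 and 73.9 CPM in Teff2, highest in replicate 2 of both.

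The rest of the splicing machinery was read from 10 lists of 153 genes by role, of which 145 were tested. Between Teff1 and Tn 56 rose and 19 fell, beside 24.5% of all genes each way. The proteins of the Sm and LSm rings, the cores of the snRNPs, rose in 9 of 13 and none fell: Snrpd1 was at 27.7 ± 7.96 CPM in Tn against 114 ± 52.8 CPM in Teff1 (SD, n = 3 each, log2 fold change 2.04, SE 0.39, adjusted p = 0.00132). Enzymes that methylate arginines and factors that assemble Sm rings rose in 9 of 11, among them Prmt1, the main arginine methyltransferase of hnRNP proteins (88.3 to 278 CPM, log2 fold change 1.66) and Gemin6 of the SMN complex (6.44 to 33.7 CPM, 2.39). Factors of the U4/U6.U5 tri-snRNP rose in 9 of 17, with Nhp2l1, which binds U4 snRNA, at 1.43 and Prpf31 at 1.40 on the log2 scale. Among 15 factors of U1, U2 and the branch site 7 rose, Snrpa of the U1 snRNP most (33.5 to 113 CPM, 1.75), and 1 fell, U2af1l4 (-1.13). The Prp19 complex and catalytic step factors gave 5 higher, with Ppie (0.98) and Prpf19 (0.97), and 2 lower of 20, Syf2 (-0.73) and Xab2 (-0.43). Their share called higher was close to that of all genes, and their share called lower was below it.

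The kinases that phosphorylate SR proteins, listed together with nuclear import receptors, gave 2 higher and 7 lower of 11 between Teff1 and Tn, beside 24.5% of all genes each way. The 2 that rose were the import receptors Tnpo1 (0.69) and Tnpo3 (0.54), and the 7 that fell were the kinases Clk1, Clk2, Clk4, Srpk2, Srpk3, Prpf4b and Dyrk1a. The kinases Srpk1 and Clk3 were not called. Clk1, a nuclear kinase of SR proteins, was at 478, 319 and 369.7 CPM in Tn replicates 1 to 3, 154, 133 and 83.5 CPM in Teff1, 181, 112 and 106 CPM in Teff2 and 147, 102 and 88.3 CPM in Tex, with no overlap between Tn and the activated libraries (log2 fold change -1.66, SE 0.29, adjusted p = 8.37e-04). Srpk3 was at 12.1, 0.272 and 24.1 CPM in Tn, high in the 2 libraries with the higher B cell and MHC class II sums, and the part of those cells in its call was not tested. Nonsense-mediated decay factors gave 3 lower of 10, near the share of all genes called lower, and none higher. Smg1, the kinase of UPF1, was among the 3 (1009 to 412 CPM, -1.29) with Smg9 (-0.55).

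Of 14 hnRNP relatives that do not carry the prefix in the matrix, 6 rose and 1 fell in Teff1, beside 24.5% of all genes each way. Hnrnpll, listed as Hnrpll, silences variable CD45 exons in activated T cells, and was at 32.2, 27.4 and 29.7 CPM in Tn replicates 1 to 3, 89.6, 112 and 147 CPM in Teff1, 63.4, 129 and 82.8 CPM in Teff2 and 93.1, 134 and 94.5 CPM in Tex. All activated libraries stood above Tn (Teff1 against Tn, log2 fold change 1.96, SE 0.27, adjusted p = 1.86e-04). Pcbp4, a binder of poly(C), rose from 5.75 to 20.3 CPM (1.82), and Cirbp, a cold-inducible RNA-binding protein, fell from 139 to 46.1 CPM (-1.60). Hnrnpdl, listed as Hnrpdl, was not called (log2 fold change -0.33, SE 0.20, adjusted p = 0.195). Among 18 SR-related proteins 6 rose, with Rnps1 of the exon junction complex (1.34) and Pspc1 of paraspeckles (0.97), and 3 fell, with Srrm2, a scaffold of nuclear speckles (-0.53), and Acin1 (-0.49). Of 16 other regulators 3 rose, with Mbnl3 (0.85) and Elavl1 (0.73), and 2 fell, with Rbm5 (-0.91). Both shares were below those of all genes.

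Between Teff2 and Tn 44 of the 145 genes were higher and 26 lower, beside 25.6% and 23.3% of all genes. The Sm and LSm list gave 7 higher of 13, the methyltransferase and assembly list 7 of 11, the tri-snRNP list 8 higher and 1 lower of 17 and the kinase list no higher and 7 lower of 11. Other regulators gave none higher and 4 lower of 16, with Rbm5 (-0.90) and Mbnl1 (-0.57), and nonsense-mediated decay factors none higher and 4 lower of 10, with Smg1 (-1.34) and Smg9 (-1.06). No gene of the 10 lists was called between Teff2 and Teff1 or between Tex and Teff2 by edgeR.

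**Figure D5:**
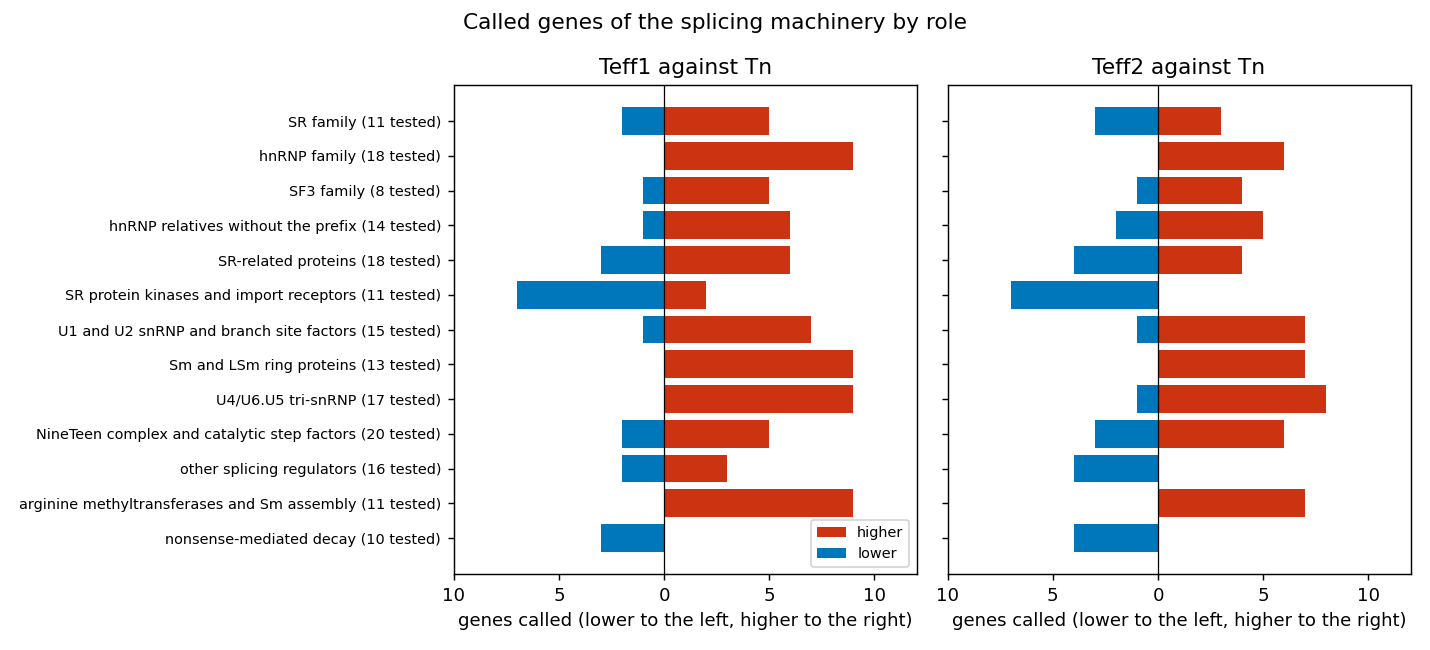
Number of genes called higher (red, to the right) or lower (blue, to the left) against Tn in Teff1 (left panel) and Teff2 (right panel), for the 3 families and the 10 lists of other splicing genes, with the number tested beside each name. The kinase list reaches 7 to the left in both panels, and the Sm and LSm list has no bar to the left in either.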

How the data were processed

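RNA-seq of mouse CD8+ T cells was read from the deposited matrix of raw counts, whole numbers per gene symbol in 12 libraries, of which all columns were mapped to a library (0 columns left out). The authors also deposited a normalized matrix, in log2 units, which was used for 1 alternative. Per the submitters' processing notes the build was mm10 and the tools included HISAT2, HTSeq and DESeq2, with versions and strand settings not given in the sources used here.

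Differences were tested in edgeR 4.0.16 under R 4.3.3 by quasi-likelihood, in 1 fit to all 12 libraries, with TMM factors, edgeR's filter by expression and Benjamini-Hochberg adjustment over the 14332 genes kept. A gene was called at an adjusted p under 0.05. edgeR's test reports no standard error. Each SE given for a log2 fold change is its absolute value divided by the square root of the test's F statistic, an approximation. CPM used TMM-scaled totals. Alternatives were RLE and upper-quartile scaling, no filter, DESeq2 1.42.0, limma 3.58.1 on the authors' log2 values, fits on 2 groups, a replicate block and fits without single libraries. Libraries held 14.7 to 21.2 M counts, so 3 counts correspond to 0.142 to 0.205 CPM, which covers counting error only.

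Deviations from the group mean correlated across genes by 0.85, 0.78 and 0.75 for Tex and Teff2 libraries of equal number and by at most 0.12 otherwise. A fit within these pairs was therefore added, while the main fit used no pairing. For Teff1 and Tn r was 0.14, 0.13 and 0.00, for Teff2 and Teff1 0.51, 0.24 and 0.03, and for Teff2 and Tn 0.01, 0.08 and 0.08. There too, pairing entered only through the replicate block among the alternatives.

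Values in every library are given for the 3 called genes with the largest rise and fall per comparison (at least 10 CPM), for the gene with most CPM per family, and for further genes as examples. From the other lists up to 2 called genes per direction were named. The genes, lists and tests were chosen with earlier results of these data known. Start sites, windows and neighbours came from RefSeq tables of GRCm38.p6, in which all 37 genes matched and 34 of them had at least 1 window.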

Additional observations from a re-analysis of the deposited data

How the results depend on the processing

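With Tn replicates 1 and 3 left out, so that the lone Tn library is assumed to vary like the others, 1 gene in place of 19 was called higher between Teff1 and Tn and 0 in place of 13 between Teff2 and Tn (8 at an unadjusted p under 0.05), while the medians were 0.46 and 0.18 in place of 0.46 and 0.20. Leaving out 1 library at a time gave 12 to 19 and 6 to 13 called higher, and 2 to 3 and 3 to 4 called lower. Upper-quartile scaling moved the median of all genes from -0.06 to -0.20 between Teff1 and Tn and from 0.00 to -0.11 between Teff2 and Tn. DESeq2, run without the filter on low counts and so over more genes, gave -0.19 and -0.14. edgeR without that filter gave -0.10 and -0.07.

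With the replicate block in a fit of the 2 groups, 17 were called higher and 3 lower between Teff1 and Tn, and 10 and 4 between Teff2 and Tn, and Hnrnpa1 was not called between Teff2 and Tn (adjusted p = 0.0651). None of the 37 genes was called between Teff2 and Teff1 or between Tex and Teff2 under any alternative run, blocked fits included.

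For the 11 changes against Tn that were among the 3 largest rises or falls of a comparison at 10 CPM or more (7 genes), 165 alternative values were computed, of which 154 kept direction and call, 11 kept the direction and lost the call, and 0 reversed. Of the 11, 6 came from leaving out Tn replicates 1 and 3 (Hnrnpa1 and Srsf1 in Teff1, and Hnrnpab, Hnrnpa1, Sf3a3 and Srsf6 in Teff2). Srsf6 also lost its Teff2 call with replicate 1 of every state left out (adjusted p = 0.0504). Depth was least for Srsf12, with 402 counts over the 12 libraries, against 9466 for the next lowest of the 37 genes, Srsf4.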
